A study of Mus musculus with 2 samples.

Results

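The genes described here encode the subunits of INO80, SRCAP and TIP60, the chromatin complexes other than BAF in which Baf53a resides. They were chosen by name: 32 genes were listed, 31 had a probe matched through its RefSeq accession, and 30 were measured in both conditions, of 16608 genes measured among 20832 with a named probe. No probe was matched to Srcap, and the probe of Ino80e was not well above background on either array. RNA came from Baf53a cKO ES cells, an E14-derived line of 1 clone in which both alleles of Baf53a were mutated by CRISPR/Cas9 and an exogenous, Cas9-resistant Baf53a is shut off by tetracycline (Tet). Both conditions shared this genotype, culture with LIF, and 1 μg/mL Tet for 6 days, begun 48 h after transfection. They differed in the transfected vector: Baf53a-expressing cells received Myc-tagged Baf53a, and Baf53b-expressing cells received Myc-tagged Baf53b, the form found in neurons. There was 1 RNA and 1 array per condition, so no difference below has a replicate check and no test could be run.

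INO80 is a motor that slides nucleosomes and is known for its work on promoters, replication forks and DNA breaks. SRCAP places the histone variant H2A.Z into nucleosomes, and TIP60 acetylates histones H4 and H2A through its catalytic subunit Kat5 and also handles H2A.Z through its motor Ep400. In all of them Baf53a pairs with nuclear actin on the motor subunit, and in ES cells the TIP60 complex is known for helping to maintain ES cell identity.

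Depth and quality were alike on both arrays, which lay on 1 slide and were read in 1 scan. Each carried 43020 spots of 39429 gene probes, of which 75.2% and 76.4% were well above background, and 0 spots were saturated. Levels below are log2 processed signals relative to the 75th percentile of the array, a signal of 1161 for Baf53a-expressing and 1128 for Baf53b-expressing cells, and differences are Baf53b- minus Baf53a-expressing cells. The level of a probe depends on its sequence, so single genes were compared between arrays and not with each other. Summed levels of marker lists, given next, are weighted towards the brightest probes. The vectors were looked for through their genes, and only that of Baf53b was seen as a difference. For Actl6b (Baf53b) the probe reached -3.24, a dim level, with the Baf53b vector. It did not rise well above background with the Baf53a vector, a difference of at least 14.5-fold. Actl6a, which encodes Baf53a, stood at 1.71 and 1.67, so it did not show the Baf53a vector. Whether its probe detects the resistant or the transfected transcript could not be settled from the files. All 8 ES cell markers (Pou5f1, Sox2, Nanog and others) were measured on both arrays. Of these 2 were above 0, beside 49.1% of all genes, and 6 below, with a median difference of -0.053. Their summed level, in units of the 75th percentile, was 305 in Baf53a- and 295 in Baf53b-expressing cells. Primitive endoderm markers were higher in Baf53b-expressing cells in 6 of 6, with a summed level of 1.74 against 2.05. Their median difference was 0.24, from 0.077 (Sox7) to 0.40 (Dab2). All 6 stayed above 0 with each array centred on its median, a uniform shift of 0.051, beside 35.6% of all genes. Most of these genes were dim (Dab2 stood at -3.43 and -3.03). Dim probes as a whole leaned upwards, with a median of 0.054 in group 2 of 5 counted from the dimmest. The markers were not set against probes of like brightness. Neuron markers were above 0 in 3 of 6, with a median of 0.014, and summed to 18.8 and 20.5, a rise that came from Snap25 (0.35). Fibroblast markers were above 0 in 4 of the 5 measured (Postn was not well above background) and summed to 13.8 and 14.3, mostly from Vim. Whether any of these cell types had a part in the differences below was not tested.

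The subunit genes differed little between Baf53a- and Baf53b-expressing cells. Of the 30 measured genes, 0 were at least 2-fold apart, beside 0.193% of all genes. At a smaller threshold, a log2 difference of 0.32, Ino80b was the 1 gene lower in Baf53b-expressing cells, beside 2.01% of all genes, and 0 were higher, beside 5.58% of all genes. Differences above 0 were found in 13 genes (43.3%) and below 0 in 17, and over all genes 49.1% were above 0. With each array centred on its median in place of the 75th percentile, 4 of 30 members and 35.6% of all genes were above 0. The median difference was -0.016 over the members and -0.0032 over all genes, and 25 of 30 members lay within 0.1 of 0 on the log2 scale, beside 52.2% of all genes. These comparisons are descriptions. Most member probes were brighter than most probes on the arrays: of 43 measured probes, 32 fell in the upper 2 of 5 groups of equal size by mean signal, where differences spread least.

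**Figure D1:**
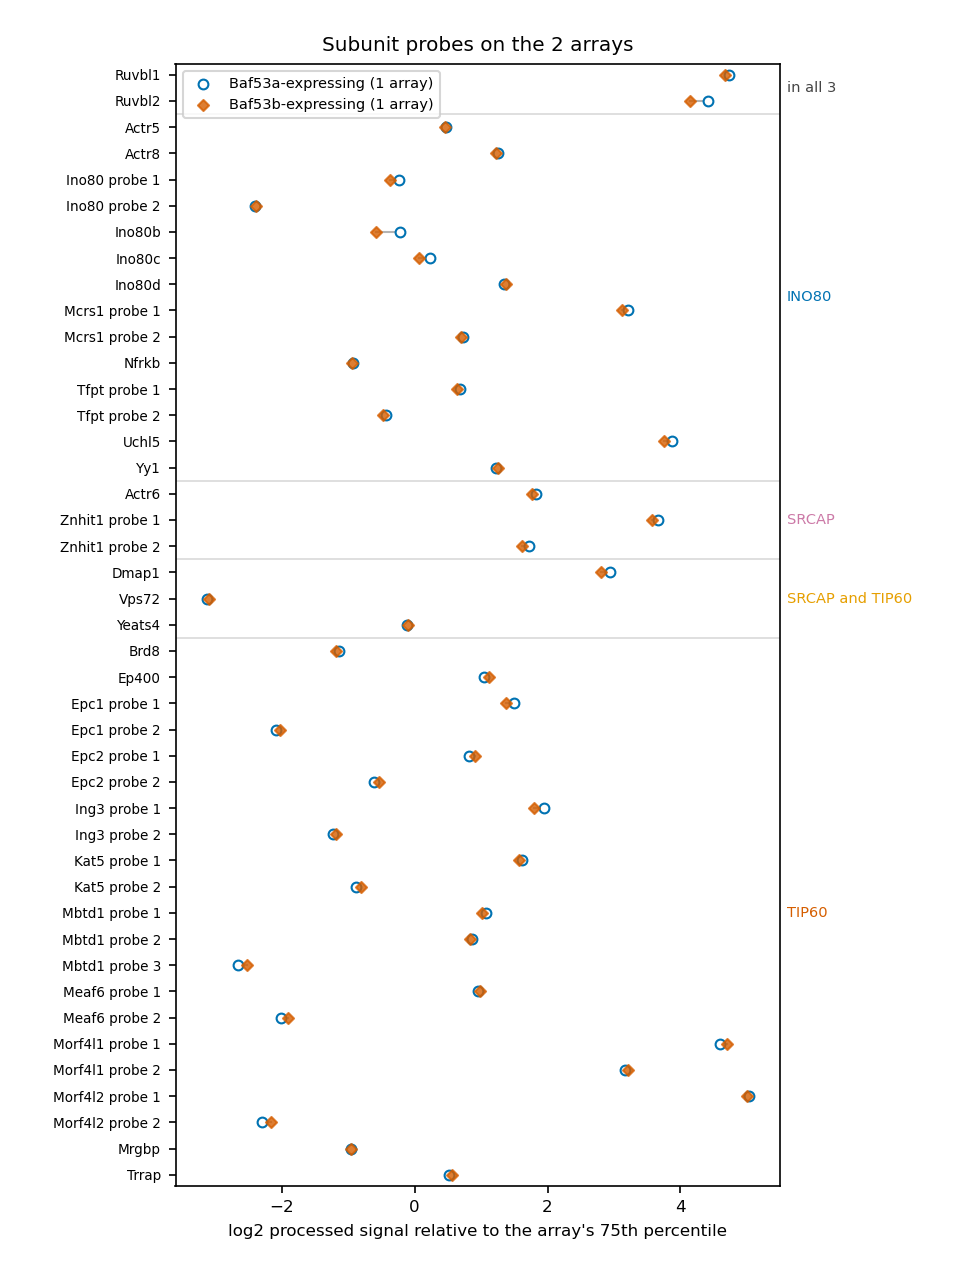
Level of each measured subunit probe on the array of Baf53a-expressing cells (open circles) and of Baf53b-expressing cells (diamonds), as log2 processed signal relative to the 75th percentile of the array, by complex. A grey line joins both values of a probe. The symbols overlap for most probes, and the widest gaps are those of Ino80b and Ruvbl2.

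2 scales were at hand to set a difference against. The extraction software gives an error for the signal of each spot, and a difference was set against the combined error of both arrays, divided by the square root of the number of spots where a probe had several. By that measure 3 of 43 member probes (Ino80b, Ruvbl2 and Uchl5) differed by more than the error, beside 19.2% of all measured probes. When the error was taken as that of 1 spot, a choice made after seeing the data, 2 of 43 did (Ino80b and Ruvbl2), beside 18.7% of all measured probes. That error of 1 spot was near 0.20 for every measured member probe, from 0.207 for the dimmest (Vps72) to 0.204 for the brightest (Morf4l2). It therefore acted much like a fixed cutoff for them. Repeated spots of 1 probe spread less: the SD of a difference of 2 spots was 0.080, 0.066 and 0.059 in the 3 brightest groups. A difference within the software error can thus lie outside the spread of repeated spots. The second scale was the spread of differences between the arrays over probes of like brightness. It takes in differences between genes and is not an error of measurement. Ino80b and Ruvbl2 lay more than 2 SD from the median of their group, 2 of 43 member probes (4.65%) beside 4.53% of all measured probes. The shares of members past the software error were below those of all probes, and the share past 2 SD was close to it. Within the 3 brightest groups, which held 42 of the member probes, 3 (7.14%) exceeded the software error, beside 11.2% of 17548 probes.

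Ino80b encodes a zinc finger HIT subunit of INO80, and Ruvbl2 encodes an AAA+ ATPase of the ring that scaffolds all 3 complexes. The bases before their annotated starts are shown because these members differed most between the arrays, with matches to 3 motifs searched on both strands in capitals: AAGATGGC, the core bound by YY1, CACGTG, the E-box bound by Myc, and CCGGAAGT, bound by ETS factors. The 250 bases of each are from RefSeq, build GRCm38.p6, and both lie on the minus strand, for Ino80b at chr6:83125120-83125369 and for Ruvbl2 at chr7:45434465-45434714.
Ino80b: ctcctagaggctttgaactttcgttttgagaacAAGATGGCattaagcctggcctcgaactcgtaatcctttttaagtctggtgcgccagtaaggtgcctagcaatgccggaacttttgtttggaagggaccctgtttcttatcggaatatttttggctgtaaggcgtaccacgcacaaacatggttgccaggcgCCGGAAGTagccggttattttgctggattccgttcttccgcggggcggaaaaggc
Ruvbl2: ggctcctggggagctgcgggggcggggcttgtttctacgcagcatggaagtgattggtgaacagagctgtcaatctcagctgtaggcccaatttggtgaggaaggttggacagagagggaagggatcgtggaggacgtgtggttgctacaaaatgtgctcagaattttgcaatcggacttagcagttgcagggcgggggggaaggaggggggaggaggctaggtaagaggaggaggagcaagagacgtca
In the Ino80b sequence the YY1 core and the ETS motif are in capitals, and the Ruvbl2 sequence holds no match. Of the 32 members, 25 had a promoter window of 300 bases in this table, and Actr5, Actr8, Brd8, Epc1, Ino80c, Ino80d and Vps72 did not. The YY1 core was in windows of 2 of 25 members (Ino80b and Znhit1), beside 3.19% of 27025 genes, and the ETS motif in 5 of 25 (Actr6, Dmap1, Ino80b, Kat5 and Mcrs1), beside 4.31%. The E-box, the site of a factor known to recruit TIP60, was in 5 of 25 (Ino80e, Kat5, Mbtd1, Morf4l2 and Znhit1), beside 8.09%. Its site in Kat5, the catalytic subunit, is shown with flanking bases (chr19:5610267-5610288, minus strand), with that of Znhit1 (chr5:136988058-136988079, minus strand).
Kat5: gtgggcgtCACGTGacagactc
Znhit1: tagtgtccCACGTGtttatccc
A match describes these letters only, and binding was not measured. The 250 bases before the start had a median of 56.2% G and C in the 25 members and 52.4% over 27025 genes. The shares above were not matched for this, nor for genes with several windows.

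The ATPases shared by all 3 complexes, Ruvbl1 and Ruvbl2, form a mixed ring, and their probes were bright on both arrays. Ruvbl2 had a signal of 24851 in Baf53a- and 19852 in Baf53b-expressing cells, levels of 4.42 and 4.14. The difference was -0.28, or 1.22-fold lower, against a combined error of 0.20. Its partner Ruvbl1 stood at 4.73 and 4.68, a difference of -0.056 that lay within the error. Both were lower in Baf53b-expressing cells, but probes as bright as these had a median difference of -0.063, and after subtracting it Ruvbl2 stood at -0.22 and Ruvbl1 at 0.0067. Ruvbl2 kept its direction under every alternative run, between -0.33 and -0.21.

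The genes of INO80 alone were mostly lower in Baf53b-expressing cells, by small amounts. Of 11 measured genes 9 were below 0 and 2 above, beside 49.1% of all genes above 0, with a median of -0.044. After the median of probes of like brightness was subtracted, 4 of 11 were above 0, with a median of -0.024. By construction, the probes of each brightness group lie evenly around 0 after it. With the shared subunits included, 2 of 13 were above 0, with a median of -0.056 before that subtraction. Ino80b had a signal of 997 in Baf53a- and 755 in Baf53b-expressing cells, levels of -0.22 and -0.58. This difference of -0.36, or 1.28-fold lower, was the widest of all members and ranged from -0.41 to -0.35 over the alternatives. It rests on 1 spot per array. Ino80c, a small subunit that partners Actr5, followed with 0.23 and 0.058, a difference of -0.17 within the combined error of 0.20.

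Ino80, the motor itself, was read by 2 probes that went opposite ways. The brighter stood at -0.24 and -0.37 and the dimmer at -2.41 and -2.38, differences of -0.14 and 0.022. The actin-related subunits Actr5 and Actr8, which help the motor grip nucleosomes and DNA, were level. Actr5 stood at 0.48 and 0.46, and Actr8, with signals of 2758 and 2648, differed by -0.017. Yy1, the zinc finger factor that the complex serves as a coactivator, had signals of 2707 and 2688, a difference of 0.031 once scaled, and Ino80d stood at 1.35 and 1.38. These were the 2 INO80 genes above 0. Nfrkb, which binds and restrains the deubiquitinase Uchl5 within INO80, stood at -0.93 and -0.94. Mcrs1, a forkhead-associated domain protein, gave -0.095 and -0.034 with its 2 probes, and Tfpt gave -0.048 and -0.039.

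Uchl5, a deubiquitinase found in INO80 and in the proteasome, was the 1 member whose probe was spotted 10 times per array, so its technical spread could be seen directly. In Baf53a-expressing cells the lowest spot was 3.74, the median 3.88 and the highest 3.94, with a mean of 3.87 ± 0.059 (SD, n = 10 spots). In Baf53b-expressing cells the lowest was 3.62, the median 3.76 and the highest 3.81, with a mean of 3.75 ± 0.058 (SD, n = 10 spots). The ranges overlapped: 1 spot of Baf53a-expressing cells fell within the range of the other array, and 7 spots of Baf53b-expressing cells fell within that of Baf53a-expressing cells. The difference of -0.12 was larger than the SD of spots on either array and smaller than their range, and spots of 1 array share an RNA and are not replicates of the condition. Relative to probes of its brightness the difference was -0.058, and under quantile normalization -0.067.

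**Figure D2:**
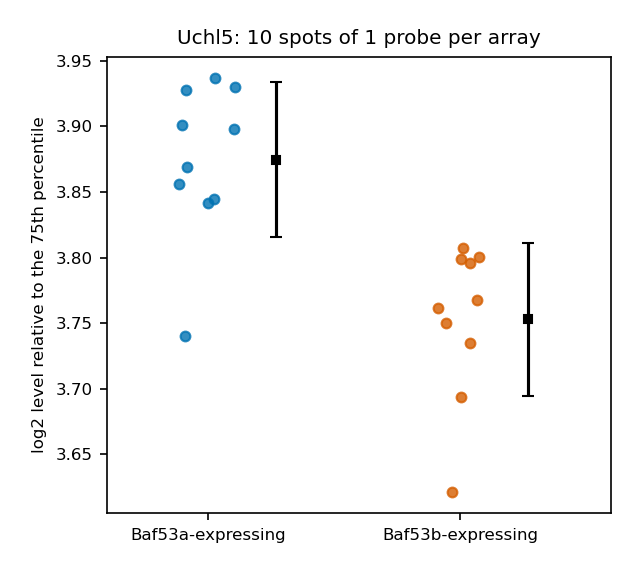
Level of Uchl5 in the 10 spots of its probe on each array, as log2 processed signal relative to the 75th percentile, with points spread sideways for visibility. Squares and bars are the mean and SD over spots of 1 array, 3.87 ± 0.059 and 3.75 ± 0.058, and do not measure variation between cultures.

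The 2 measured genes of SRCAP alone were both slightly lower in Baf53b-expressing cells, while 49.1% of all genes were above 0. Actr6, an actin-related protein of the H2A.Z exchange module, stood at 1.83 and 1.76. Znhit1, its zinc finger partner in that module, gave -0.085 and -0.096 with its 2 probes. Relative to probes of like brightness the difference was -0.0023 for Actr6 and -0.049 for Znhit1. Of the genes shared by SRCAP and TIP60, Dmap1 stood at 2.95 and 2.81, a difference of -0.14 within the combined error. Relative to probes of its brightness it was -0.073. Yeats4, a reader of acetylated histones, stood at -0.12 and -0.11, and Vps72, a chaperone of H2A.Z, at -3.12 and -3.09, both close to level.

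The genes of TIP60 alone leaned the other way, again by little. Of 12 genes 9 were above 0 and 3 below, beside 49.1% of all genes above 0. Their median was 0.031, with a range from -0.052 (Brd8) to 0.085 (Ep400). With the brightest probe of each gene in place of the mean over probes, 6 of 12 were above 0, beside 46.4% of all genes. The median then turned to -0.0072. None of the probes of these 12 genes differed by more than the combined error. With the subunits that TIP60 shares included, 11 of 17 genes were above 0. The median was then 0.017 and the lowest value -0.28 (Ruvbl2). Kat5, the acetyltransferase, stood at 1.61 and 1.57 with its brighter probe and at -0.88 and -0.81 with its dimmer one. The motor Ep400 stood at 1.04 and 1.12, and Trrap, the large scaffold that binds activators such as Myc, at 0.52 and 0.56. Brd8, a bromodomain subunit, stood at -1.14 and -1.19.

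The core that holds Kat5 to the nucleosome is made of Epc1 or Epc2, Ing3 and Meaf6. Epc2 was higher with both probes, by 0.088 and 0.069, and so was Meaf6, by 0.027 and 0.11. Epc1 and Ing3 were each split, with a brighter probe below 0 (-0.12 and -0.16) and a dimmer one above (0.067 and 0.056). The 2 Epc1 probes carry different RefSeq accessions. Morf4l1, whose chromodomain reads methylated histones, was higher with both probes, by 0.11 and 0.040. Its relative Morf4l2 gave -0.024 with the bright probe and 0.13 with the dim one, which also differ in accession. Their partner Mrgbp stood at -0.96 and -0.95, and Mbtd1, a reader of methylated histone tails, gave -0.062, -0.028 and 0.14 with its 3 probes. The probe sequences were not used here, so how far probes of related genes such as these share targets was not tested.

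**Figure D3:**
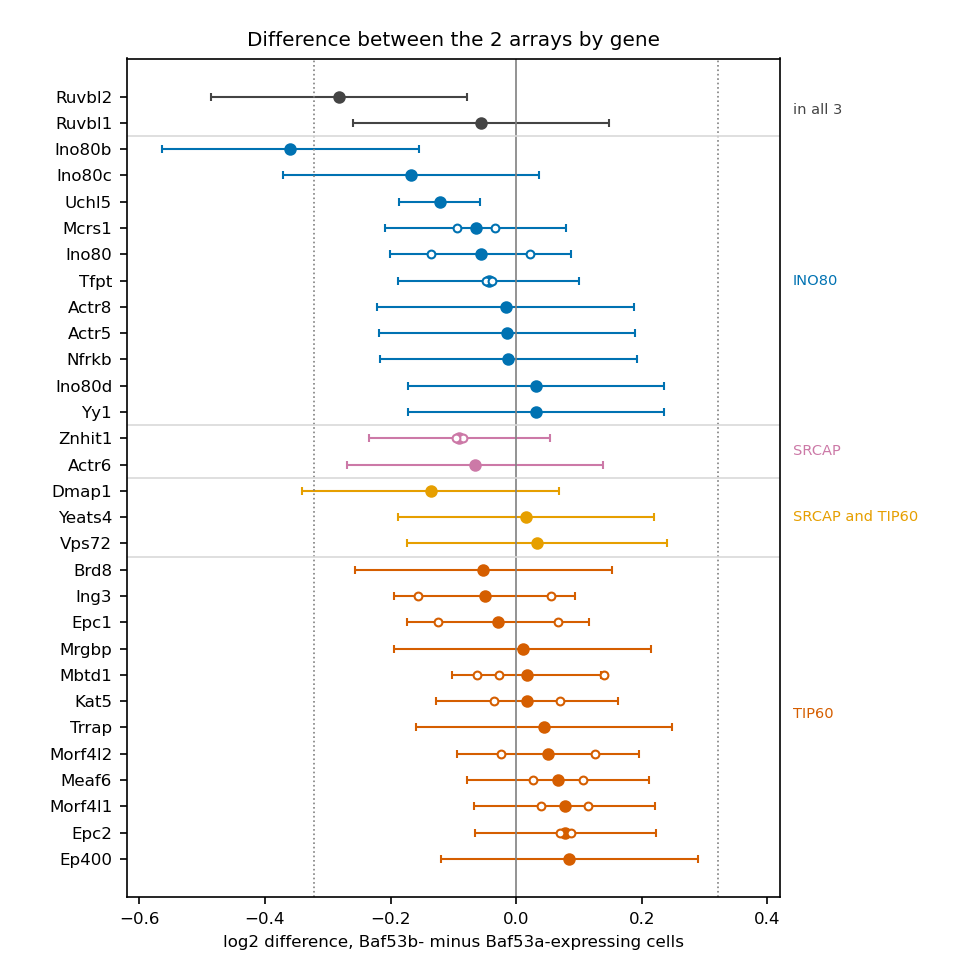
Difference between the arrays for each measured gene, in log2 units, Baf53b- minus Baf53a-expressing cells, by complex. Filled points are gene means over probes, open points single probes where a gene has several, and bars the combined error of the extraction software. Dotted lines mark a difference of 0.32 in either direction, which Ino80b alone passes.

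The counts of genes above 0, here for INO80 alone and TIP60 alone, depend on where 0 is set. Centring each array on its median lowers every gene alike by 0.051, while the gap between both medians stays as it was. After it, 0 of 11 INO80 and 4 of 12 TIP60 genes were above 0, beside 35.6% of all genes. The TIP60 median was above the INO80 median in all 11 settings, the main one included. This is no replicate check, since all settings use the same 2 arrays. Several of them shift every gene alike or left the values of these genes unchanged, so they could not alter the gap. After the median of probes of like brightness was subtracted, 4 of 11 INO80 genes (median -0.024) and 8 of 12 TIP60 genes (median 0.043) were above 0. By construction, the probes of each brightness group then lie evenly around 0. Whether the 2 complexes differ was not tested.

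Brightness itself moved with the differences. The dimmest of the 5 groups of measured probes had a median difference of 0.098 with an SD of 0.32, and the brightest a median of -0.063 with an SD of 0.11. Among the 12 members with several measured probes, the dimmest probe gave the higher difference in 9 (75%), beside 62.6% of 4212 such genes, and probes of 1 gene had opposite signs in 6 (50%), beside 40.2%. With cyclic loess, which levels this trend, the dimmest probe was still the higher in 8 of the 12. Of the 30 members, 23 had the same sign under the 4 scalings other than centring on the median, and 16 did with that uniform shift included. The loess count and these counts of signs were not made over all genes, so they show nothing particular to the members.

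**Figure D4:**
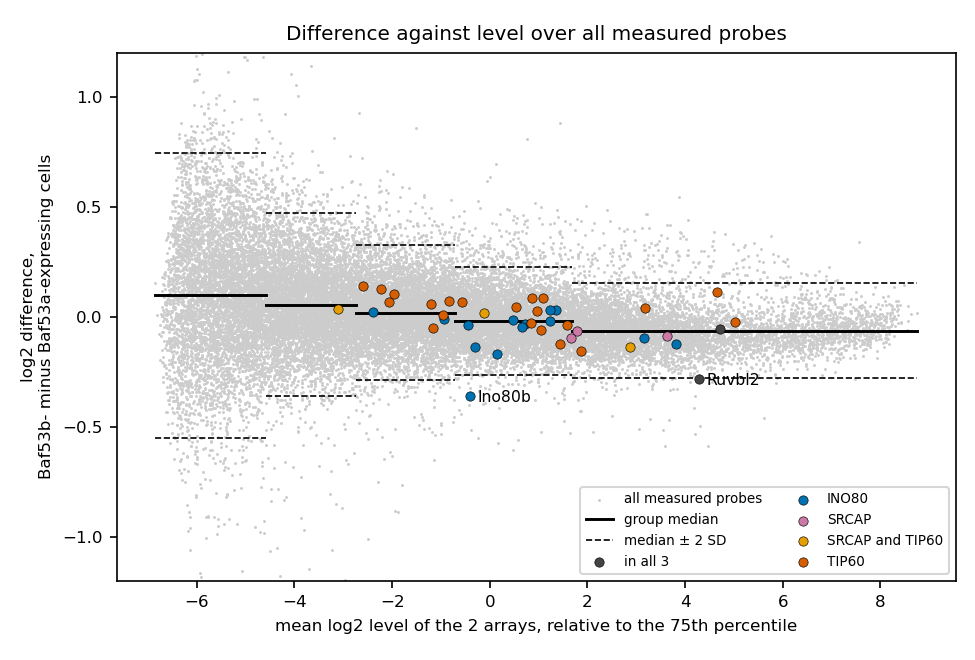
Difference between the arrays against the mean level of each measured probe, both in log2 units, for all probes (grey) and subunit probes (coloured by complex). Black lines are the median and dashed lines the median ± 2 SD in 5 groups of equal size by level, and 44 probes beyond the axis limits of ± 1.2 are not drawn. Ino80b and Ruvbl2 lie below the lower dashed line of their groups, and the other subunit probes lie inside.

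Genes that work with these complexes were also close to level. Of 16 measured partners (actin, H2A.Z and H2A.X genes, Myc and Max, and assembly factors), 6 were above 0, beside 49.1% of all genes. Their median was -0.056, with a range from -0.19 (Pih1d1) to 0.18 (Tti2). Pih1d1 belongs to the R2TP complex that assembles Ruvbl1 and Ruvbl2 into larger machines, and it stood at 2.76 and 2.57, a difference within the combined error of 0.20. H2az1, the main gene of H2A.Z, stood at 6.90 and 6.84, and Myc, which binds the E-box, differed by 0.0092. BAF and PBAF subunits, the other home of Baf53a, had a median of -0.028 over 24 genes, with 9 above 0, from -0.18 (Dpf2) to 0.19 (Pbrm1).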

How the data were processed

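Both RNAs were labelled with Cy3 and hybridised to 4 × 44K mouse arrays of 1 colour, whose design was annotated on mm9. The submitters' processing notes name Agilent Feature Extraction 11.0.1.1. Each deposited intensity is the processed signal of a spot, which this software subtracts for background and detrends, and arrays were not normalized to each other. A second deposited table holds a ratio per probe: every one of 30479 compared equalled the intensity of the probe divided by 1 number per array (1160 and 1126) within 0.1%. It was used only as an alternative.

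Control and outlier spots were left out, log2 intensities were averaged per probe, and the 75th percentile was subtracted. A probe was measured when at least 50% of its spots were well above background on both arrays, and a gene was the mean of its measured probes. Probes were named by RefSeq accession through a GRCm38.p6 gene table, used for names only. The bound for Actl6b sets its level against the higher of its own dim value and the lowest signal well above background on the other array. The precision is limited by 1 array per condition. The text names every listed member, Actl6a, Actl6b, measured partners, and the highest and lowest gene of other lists where given. Pou5f1, Nanog, Postn and Vim are named outside this rule, as examples of marker lists, chosen after their values were seen. The members and lists were chosen with earlier results of these data known. Alternatives were cyclic loess, quantile normalization, medians in place of 75th percentiles, normexp (offset 50, on median signals), a stricter or no filter for dim probes, a weaker detection flag, outlier spots kept, the value table and the brightest probe of a gene. Python 3.11.15 (numpy 2.4.6, pandas 2.3.3, matplotlib 3.10.9) and R 4.3.3 (limma 3.58.1) were used, and the steps were tested on simulated data.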

Additional observations from a re-analysis of the deposited data

How the results depend on the processing

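Across 10 alternatives, 0 of 30 genes moved by more than the spot error of a difference (0.13 on the log2 scale), and 0 were 2-fold apart under any. That error pools probes of every brightness. In the 3 brightest groups, which held 42 of 43 member probes, it was 0.080, 0.066 and 0.059, falling with brightness. With the brightest probe of a gene, Ing3 went from -0.050 to -0.16 and Epc1 from -0.029 to -0.12. Both moved by more than these smaller errors, so the count of 0 of 30 holds for the pooled error only. Several alternatives, such as the filters and the detection flag, left the values of the 30 genes unchanged. Centring each array on its median, which lowers every gene alike by 0.051 and the median of all genes to -0.054, gave 2 genes past the smaller threshold of 0.32 (Ino80b and Ruvbl2), 4 of 30 genes above 0, 0 of 11 INO80 genes and 4 of 12 TIP60 genes above 0. Over all genes 35.6% were above 0 when so centred. The INO80 count above 0 was 4 of 11 with cyclic loess, beside 48.3% of all genes, and 4 of 11 with normexp, beside 58.1%. The median over the members ranged from -0.067 to 0.0017, above 0 with normexp only. That of INO80 stayed negative, from -0.095 to -0.026, and that of TIP60 ranged from -0.020 (centred on the median) to 0.050. With the brightest probe of a gene the TIP60 median was -0.0072, with 6 of 12 genes above 0, beside 46.4% of all genes. Taking the software error as that of 1 spot, chosen after seeing the data, left 2 member probes above it in place of 3, since Uchl5 no longer passed. The causes were not tested. No paired analysis was possible because each condition had 1 array, and for the same reason no array could be left out. Signal over background sets the limit for dim probes such as that of Ino80e.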

Other observations

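Relatives of the TIP60 acetyltransferase, the MYST family and its partner subunits, were listed beside the complexes. Of 20 measured genes 6 were above 0, beside 49.1% of all genes, with a median of -0.035. The lowest was Jade2, at -0.81 in Baf53a- and -1.02 in Baf53b-expressing cells, a difference of -0.20. The highest was Jade3, a scaffold of the Kat7 complex, at -5.68 and -5.29, a difference of 0.39 from a dim probe whose combined error was 0.27. The dimmest group, in which this probe lies, had a median difference of 0.098 with an SD of 0.32. With normexp the difference of Jade3 was 0.30. Chd genes, another family of remodelers, had 6 of 7 measured members above 0 (2 of 7 when centred on the median) with a median of 0.025, beside 49.1% of all genes (35.6% when centred), and Polycomb genes 15 of 29, with a median of 0.0054. Each of these rests on 1 array per condition.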
